A study of Mus musculus with 6 samples.

Results

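The genes described here are 7 receptors by which endothelial cells take up waste, lipoproteins and immune complexes: Stab1, Stab2, Scarb1, Scarf1, Colec12, Olr1 and Fcgr2b. They were taken by name from the 24421 genes of the count table, and all 7 were found. They had been chosen with their read counts per 1000000 reads (CPM) in the 6 libraries and their 3 ratios in view, so these values are a description and were not tested. The RNA-seq data came from endothelial cells in which Dot1l, the histone H3 methyltransferase, was deleted or overexpressed. Cont BECs and cKO BECs were blood endothelial cells from the skin of E15.5 mouse embryos. Both carried Dot1l 2f/2f, and the cKO embryos also carried Tie2-Cre, whose promoter is active in endothelium and in much of the blood lineage. The labels call the Cre-negative control wild type. The sort removed cells positive for CD45, F4/80 or Lyve1, the cells kept are described as positive for the endothelial marker CD31, and RNA of 2 to 3 embryos was pooled. The cultured cells were the yolk sac BEC line CRL-2581 and dermal lymphatic endothelial cells (LECs, C57-6064L). OE-BECs and OE-LECs received a lentivirus that brings the activator dCas9-VP64 to the Dot1l promoter, their controls received empty virus, and cells of 2 to 3 flasks were pooled. Each condition had 1 library, so every difference below is between 2 libraries, has no replicate check and carries no p-value.

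Scavenger receptors bind modified proteins, lipoproteins and glycans at the cell surface and carry them into endosomes. They are best known in the sinusoidal endothelium of the liver, spleen and lymph node, where stabilin-1 and stabilin-2 clear hyaluronan and other worn-out matrix material, and the Fc receptor encoded by Fcgr2b takes up small immune complexes. Several of them are also made outside endothelium. Stab1 is abundant in tissue macrophages, Fcgr2b in macrophages, mast cells and B cells, and Colec12 in stromal cells.

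The libraries held 8863349 to 31032461 reads. Rn45s gave 5.91% of the reads in cultured Cont BECs, 10.9% in OE-BECs and at most 0.570% in the other libraries. CPM values count these reads. Dot1l had 86.0 CPM in Cont BECs and 85.2 CPM in the cKO-labelled skin library, so the reads over the whole gene did not separate those libraries. Counts per gene may not show a loss limited to part of the gene. The study reports that RT-qPCR, done without replicates, bore out the knockout. In culture, Dot1l had 112 and 302.0 CPM in Cont BECs and OE-BECs, and 95.3 and 217 CPM in Cont LECs and OE-LECs. All 11 endothelial markers were over the floor of 3 reads in every library. Both skin libraries also held markers of other cells. All 16 macrophage markers were over the floor there, at a summed 4359 CPM in Cont BECs and 6659 CPM in the cKO-labelled library, against 36.0 to 96.7 CPM in the cultured libraries. The 7 mast cell markers summed to 2627 and 3785 CPM in the skin libraries and to at most 4.18 CPM in culture, and the 7 keratinocyte markers to 207 and 361 CPM against at most 8.89 CPM. The 9 fibroblast and pericyte markers summed to 2826 and 2094 CPM in skin and to at most 24.0 CPM in culture. Lyve1, the surface marker used to remove LECs, had 9105 and 19959 reads in the skin libraries, and the lymphatic regulator Prox1 had 1304 and 883. In both libraries labelled LEC, 4 of the 9 lymphatic markers were over the floor. Lyve1 had 52184 and 60898 reads, Flt4 2785 and 4038, Nrp2 5232 and 7646, and Foxc2 248 and 315. In cultured Cont BECs and OE-BECs, 5 and 4 of the 9 were over the floor. Prox1 and Pdpn had 0 reads in both LEC libraries, which therefore lack these defining lymphatic markers. In such bulk libraries, fewer cells of a type and less RNA per cell cannot be told apart.

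Genes were called where 1 library of a pair exceeded the other more than 3-fold in normalized counts and reached at least 5 (skin) or 3 (culture), and "rose" and "fell" are used only of called genes. In the cKO-labelled library, Stab2 and Fcgr2b rose and 0 members fell. By this rule 4.4% of the 18784 genes with reads were called higher and 2.05% lower. In OE-BECs, 0 members rose and 2 fell, Stab2 and Colec12, where 7.05% of all 16820 genes were called higher and 4.63% lower. In OE-LECs, 0 members rose and Stab2 alone fell, where 2.38% and 1.79% of 16160 genes were called higher and lower. The members were chosen on these ratios, so nothing is read from their counts. Over the members with more than 3 reads in a library of the pair, the median of the log2 ratios (after adding 1 to the normalized counts) was 0.65 for 6 genes in the cKO-labelled library, -0.75 for 6 genes in OE-BECs and -0.05 for 5 genes in OE-LECs. The medians of all genes past the same minimum were 0.01, 0.00 and 0.01.

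**Figure D1:**
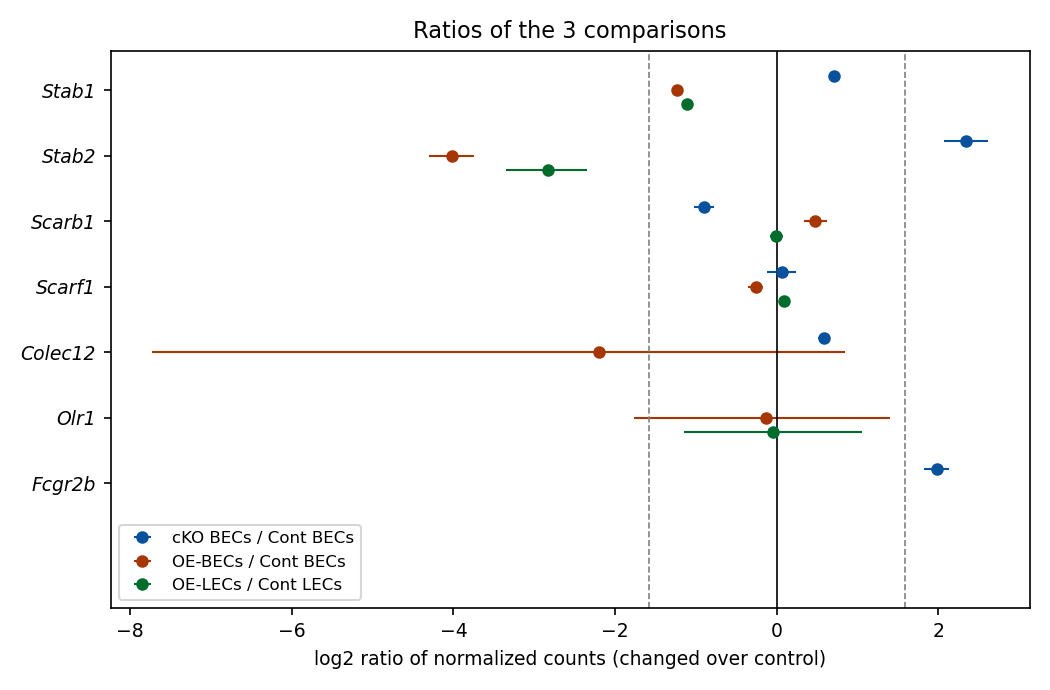
Log2 ratio of normalized counts (x axis, changed over control) of each gene (y axis) in the 3 comparisons, 1 library against 1, with exact 95% intervals for counting error; dashed lines mark 3-fold, and genes with at most 3 reads in both libraries are left out. Stab2 lies past 3-fold in all 3 comparisons, at 2.34, -4.02 and -2.83.

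Because Stab1 and Stab2 had ratios of the same sign in all 3 comparisons, the bases just upstream of both genes are shown, from the RefSeq promoter windows of GRCm38.p6 (the assembly of mm10), which held 4 of the 7 genes (Stab1, Stab2, Olr1 and Fcgr2b). Each run is on the minus strand, 5′ to 3′, and ends at the base before the GENCODE M21 start, from which distances are given. For Stab1 this is also the RefSeq start. The RefSeq start of Stab2 lies further downstream, so distances from it would be longer. Capitals mark the longest run of letters common to both, which was looked for after the sequences were seen. The Stab1 run is chr14:31168642-31168891 and the Stab2 run is chr10:87008026-87008192.
Stab1: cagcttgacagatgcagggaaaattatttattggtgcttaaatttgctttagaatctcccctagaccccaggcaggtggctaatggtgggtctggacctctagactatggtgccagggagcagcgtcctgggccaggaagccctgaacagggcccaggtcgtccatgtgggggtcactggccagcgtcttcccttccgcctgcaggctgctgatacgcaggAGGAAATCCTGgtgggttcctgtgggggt
Stab2: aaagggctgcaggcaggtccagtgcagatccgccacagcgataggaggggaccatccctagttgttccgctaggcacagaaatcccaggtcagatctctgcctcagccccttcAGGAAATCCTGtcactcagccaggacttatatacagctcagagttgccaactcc
The shared run, AGGAAATCCTG, is 11 bases long and begins 29 bases upstream of the start of Stab1 and 54 bases upstream of that of Stab2. On either strand it was present in 14 of 32851 promoter windows of 300 bases (0.0426%). The run was picked for its length and no other pair of genes was searched in this way. Nothing is therefore read from its low share. It contains the letters AGGAA, the core of ETS factor sites, which on either strand were in 66.7% of all windows. Each window of 300 bases also takes in bases past the GENCODE start, which are not printed. For Stab2 some of these bases lie upstream of its RefSeq start. The windows of Stab1 and Stab2 held 3 matches each to this core, of which 3 and 1 lie in the runs shown. Neither window held a match on either strand to the AP-1 motif TGANTCA (in 7.81% of windows) or the GATA motif AGATAA (in 11.2%). The same holds for the SOX motif AACAAT (in 10.7% of windows), the GC box GGGCGG (in 35.7%) and the FOX motif TGTTTA (in 13.4%). The E-box CANNTG, in 72.3% of windows, matched 3 times in the Stab1 window and 0 times in that of Stab2. These matches describe letters and are not sites of binding.

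Stab2 encodes stabilin-2, the main hyaluronan receptor of sinusoidal endothelium. The gene lies on the minus strand of chromosome 10 of mm10, from 86841198 to 87008025. It had 133 reads (15.01 CPM) in skin Cont BECs and 876 reads (79.0 CPM) in the cKO-labelled library. In culture it had 2412 reads (136 CPM) in Cont BECs and 114 reads (8.18 CPM) in OE-BECs. In the LECs it had 242 reads (9.27 CPM) in the control and 40 reads (1.29 CPM) after overexpression. The level was highest in cultured Cont BECs and lowest in OE-LECs. Cont LECs and OE-BECs, neighbours in this order of CPM, did not differ beyond counting error (1.13-fold, 95% interval 0.903 to 1.43), and every other neighbouring pair did.

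As a ratio of normalized counts, Stab2 was 5.07-fold higher in the cKO-labelled library than in Cont BECs, which is 2.34 on the log2 scale (exact Clopper-Pearson 95% interval 2.08 to 2.62). In the skin pair 10212 genes reached 100 normalized counts in the higher library. Of these 1.19% were called higher and 0.509% lower, and Stab2 ranked 50 among the 4668 with a positive ratio. In OE-BECs it was 16.2-fold lower, at -4.02 on the log2 scale (interval -4.30 to -3.75). Of 9867 such genes in that pair, 0.527% were called higher and 1.55% lower, and Stab2 ranked 12 among the 5151 with a negative ratio. In OE-LECs Stab2 was 7.10-fold lower, at -2.83 on the log2 scale (interval -3.35 to -2.34). There, 0.59% of 10503 genes were called higher and 0.238% lower, and Stab2 ranked 2 among the 5103 with a negative ratio. Dot1l was higher in both overexpressing libraries and nearly level in the skin pair.

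Stab1 encodes stabilin-1, the paralog of stabilin-2, which binds SPARC and modified lipoproteins and also sorts cargo inside the cell. It lies on the minus strand of chromosome 14 from 31139013 to 31168641. Stab1 had 11324 reads (1278 CPM) in skin Cont BECs and 24056 reads (2170.2 CPM) in the cKO-labelled library. The reads were 20079 (1135 CPM) in cultured Cont BECs and 6555 (470.4 CPM) in OE-BECs. They were 12410 (475 CPM) in Cont LECs and 6746 (217 CPM) in OE-LECs. Stab1 was higher in the skin libraries than in any cultured library. In CPM, Cont LECs and OE-BECs again did not differ beyond counting error (1.01-fold, interval 0.980 to 1.04). The larger share of Rn45s reads in OE-BECs lowers their CPM, so the order of these libraries for Stab1 depends on the scale.

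The ratios of Stab1 had the signs of those of Stab2 in each comparison but did not reach 3-fold. Stab1 was 1.64-fold higher in the cKO-labelled library (log2 ratio 0.71, interval 0.68 to 0.74). It was 2.35-fold lower in OE-BECs (-1.23 on the log2 scale, interval -1.27 to -1.19). It was 2.16-fold lower in OE-LECs (log2 ratio -1.11, interval -1.15 to -1.07). Endothelial markers were also lower in these libraries, 10 of 11 in OE-BECs (summed log2 ratio -0.63, with Vwf and Flt1 called) and 9 of 11 in OE-LECs (-0.10, with Vwf called), and their part in the results was not tested. Relative to those markers the log2 ratio of Stab1 was -0.61 in OE-BECs and -1.01 in OE-LECs, and that of Stab2 was -3.39 and -2.73. Exons of Stab1 share 112 bases with those of Nt5dc2 on the opposite strand, those of Stab2 share 141 bases with Gm16268 and those of Fcgr2b share 155 bases with Gm38204. The reads were counted with the -S option of VERSE, and the methods do not say whether it sets strand, so the reads of these stretches cannot be assigned with certainty. Nt5dc2 had 880 and 1684 reads in the skin libraries and at most 84 in the cultured ones.

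**Figure D2:**
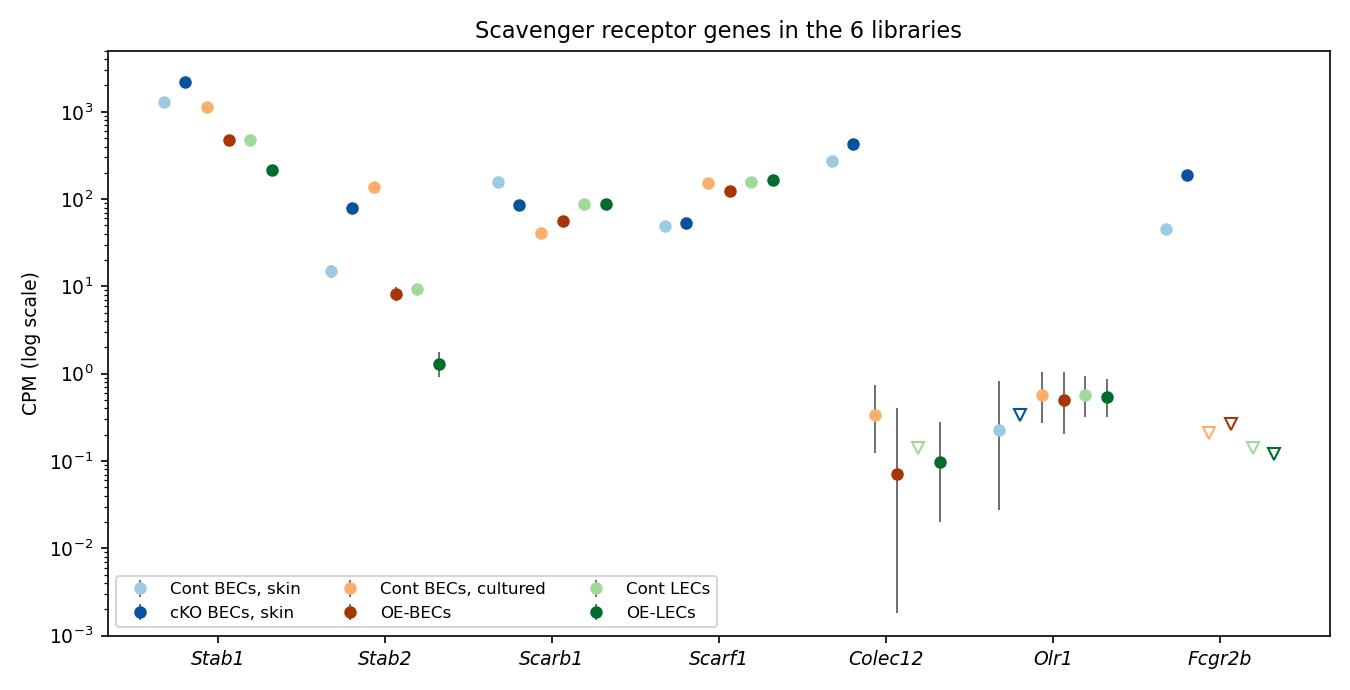
CPM on a log scale (y axis) of the 7 genes (x axis) in the 6 libraries, 1 point per library with its exact Poisson 95% interval; open triangles mark libraries with 0 reads, drawn at the upper limit of the interval. Colec12 and Fcgr2b were abundant only in the 2 skin libraries, while Stab1, Scarb1 and Scarf1 were over 40 CPM in all 6.

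Within a library the ratio of Stab2 to Stab1 does not depend on depth or scaling. There were 1.17 Stab2 reads per 100 Stab1 reads in skin Cont BECs (95% interval 0.982 to 1.39) and 3.64 in the cKO-labelled library (interval 3.40 to 3.90). The ratio was 12.0 in cultured Cont BECs (interval 11.5 to 12.5) and 1.74 in OE-BECs (interval 1.43 to 2.09). It was 1.95 in Cont LECs (interval 1.71 to 2.21) and 0.593 in OE-LECs (interval 0.423 to 0.808). Stab2 therefore changed more than Stab1 in each pair of libraries, and none of the 3 pairs of intervals overlapped. Per kilobase of exon, Stab2 stood at 14.1% of the level of Stab1 in cultured Cont BECs and at 0.697% in OE-LECs.

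**Figure D3:**
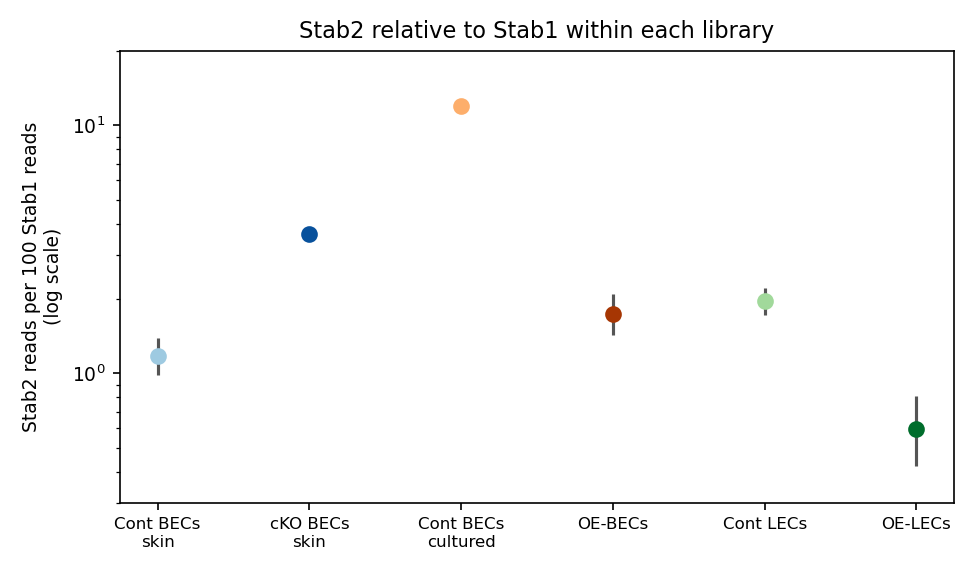
Reads of Stab2 per 100 reads of Stab1 on a log scale (y axis) in each of the 6 libraries (x axis), with exact 95% intervals for counting error. The ratio ran from 0.593 in OE-LECs to 12.0 in cultured Cont BECs.

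Fcgr2b encodes the inhibitory Fc receptor for IgG, and lies on the minus strand of chromosome 1 from 170958617 to 170976547. It had 407 reads (45.9 CPM) in skin Cont BECs and 2089 reads (188 CPM) in the cKO-labelled library. It had 0 reads in all 4 cultured libraries, with exact Poisson 95% upper limits of 0.119 to 0.265 CPM. Fcgr2b was 3.95-fold higher in the cKO-labelled library, at 1.98 on the log2 scale (interval 1.83 to 2.14), and ranked 80 among the same 4668 genes.

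Other Fc receptors were counted in the same skin libraries. Fcgr3, an activating receptor whose extracellular part is close to that of Fcgr2b in sequence, had 1256 and 3736 reads (log2 ratio 1.19). The split of reads between the 2 genes is uncertain. Fcgr2b had 32.4 reads per 100 Fcgr3 reads in Cont BECs (interval 28.9 to 36.3) and 55.9 in the cKO-labelled library (interval 53.0 to 59.0). Of the list of 7 other Fc receptor genes, Fcgr4 rose from 21 to 165 reads (log2 ratio 2.60) and the other 6 were not called. The B cell marker Ms4a1 (0 and 1 reads) was under the floor, and the 4 B cell markers summed to 4.06 and 3.43 CPM. In OE-BECs, Fcgr4 and Fcer1g were called higher on 2 and 7 reads each, with intervals that include no change, and in OE-LECs 0 of the 7 were called. The list medians were 0.69 for 7 genes over the floor in the skin pair, 0.90 for 4 in OE-BECs and -0.58 for 3 in OE-LECs.

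Markers of macrophages and other cells were read in the same comparisons. In the cKO-labelled library, 13 of 16 macrophage markers were higher and 3 were lower, 0 were called, and their sum had a log2 ratio of 0.56. Of 7 mast cell markers 6 were higher, with a summed log2 ratio of 0.47, while 10 of 11 endothelial markers were lower, with a summed log2 ratio of -0.73. The part of these cells in the results was not tested, and each of the 6 members over the floor in the skin pair is therefore also given per 1000 reads of either marker list, here or with its other values. Fcgr2b had 7.03 reads per 1000 endothelial marker reads in Cont BECs and 46.2 in the cKO-labelled library, and 10.5 and 28.3 per 1000 macrophage marker reads. Stab2 had 2.30 and 19.4 on the endothelial scale and 3.44 and 11.9 on the macrophage scale. Stab1 had 196 and 532 on the endothelial scale but 293 and 326 on the macrophage scale. In log2 ratios on the macrophage scale, Stab2 was at 1.78, still past 3-fold, Fcgr2b was at 1.43, no longer past it, and Stab1 was at 0.15. Mrc1, which sinusoidal endothelium also expresses, gave 58.2% and 58.7% of the macrophage marker reads, and without it Stab2 was at 1.80 and Fcgr2b at 1.44. Single macrophage markers ranged from -1.24 (Cd14) to 1.46 (Itgam). Relative to each in turn, the log2 ratio of Stab2 ran from 0.88 to 3.58 and was past 3-fold for 9 of the 16, and that of Fcgr2b ran from 0.52 to 3.22 and was past it for 5. In culture, 5 of the 16 macrophage markers were over the floor in the BEC pair, 2 higher and 3 lower in OE-BECs, with a summed log2 ratio of -0.88. Lyz2 was called lower there (40 to 7 reads), and Cd68 (1093 and 448 reads) and Cd14 (54 and 19 reads) were lower without being called. In the LEC pair 8 were over the floor, 6 higher and 2 lower in OE-LECs, with a summed log2 ratio of -0.17. Adgre1, C1qa, C1qb, C1qc and Cd163 had 0 reads in all 4 cultured libraries. The part of these markers' cells in the results in culture was not tested.

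**Figure D4:**
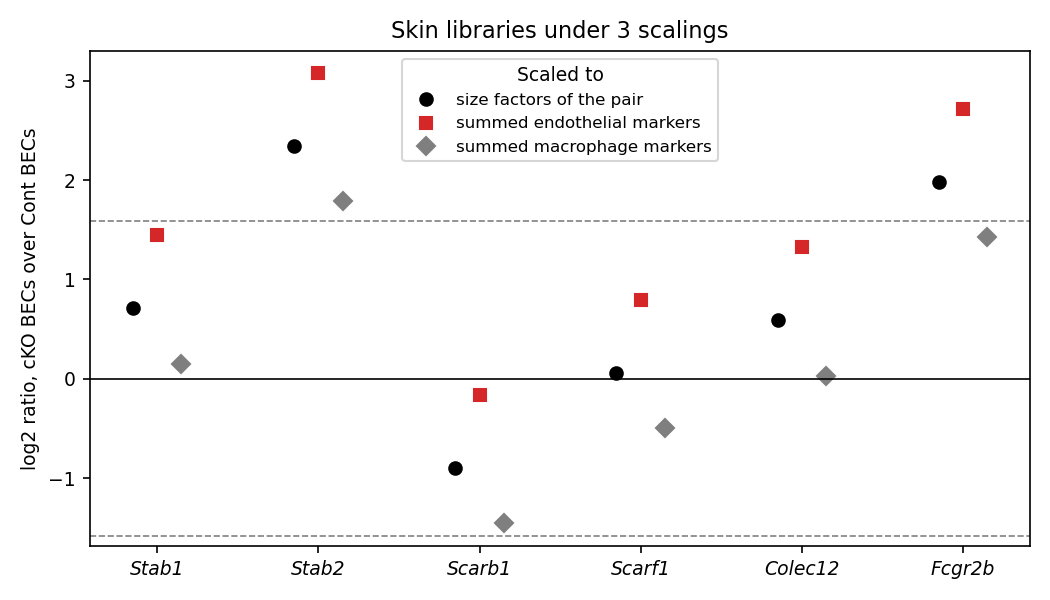
Log2 ratio of the cKO-labelled library over Cont BECs (y axis) of 6 genes (x axis), scaled by the size factors of the pair, by the summed reads of 11 endothelial markers or by those of 16 macrophage markers; dashed lines mark 3-fold. Stab2 lies above 3-fold on each scale, Fcgr2b on the size factor and endothelial scales, and Colec12 is at 0.03 on the macrophage scale.

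Colec12 encodes a membrane collectin of scavenger receptor class A, which binds oxidized lipoproteins and microbial glycans. It lies on the plus strand of chromosome 18 from 9707595 to 9882644. Colec12 had 2410 reads (272 CPM) in skin Cont BECs and 4709 reads (425 CPM) in the cKO-labelled library. It had 6 and 1 reads in cultured Cont BECs and OE-BECs, and 0 and 3 reads in Cont LECs and OE-LECs. The gene was near the floor in culture. In the skin pair it was 1.504-fold higher in the cKO-labelled library, a log2 ratio of 0.59 (interval 0.52 to 0.66) that is under the 3-fold of the rule. It had 41.6 and 104 reads per 1000 endothelial marker reads, but 62.4 and 63.8 per 1000 macrophage marker reads. Fibroblast and pericyte markers, 8 of 9 of which were lower in the cKO-labelled library, had a summed log2 ratio of -0.49. The rule called Colec12 lower in OE-BECs on 6 and 1 reads, but the interval of its log2 ratio (-7.73 to 0.84) includes 0, so a fall was not detectable at this depth.

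Scarb1 encodes the HDL receptor SR-BI, which exchanges cholesterol with lipoproteins and carries LDL across endothelium. It lies on the minus strand of chromosome 5 from 125277087 to 125341094. Scarb1 had 1374 reads (155 CPM) in skin Cont BECs and 959 reads (86.5 CPM) in the cKO-labelled library. It had 730 reads (41.3 CPM) in cultured Cont BECs and 781 reads (56.0 CPM) in OE-BECs. It had 2301 reads (88.1 CPM) in Cont LECs and 2694 reads (86.8 CPM) in OE-LECs. The level was highest in skin Cont BECs and lowest in cultured Cont BECs, and Cont LECs, OE-LECs and the cKO-labelled library did not differ as neighbours beyond counting error. Scarb1 was 1.86-fold lower in the cKO-labelled library (log2 ratio -0.90, interval -1.02 to -0.78), the opposite sign to the stabilins. Scarb1 had 23.7 and 21.2 reads per 1000 endothelial marker reads, but 35.6 and 13.0 per 1000 macrophage marker reads (log2 ratios of -0.16 and -1.45). In OE-BECs the log2 ratio was 0.48 (interval 0.33 to 0.63), or 1.11 relative to endothelial markers, and in OE-LECs the interval of -0.08 to 0.08 held 0.

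Scarf1 encodes an endothelial receptor for acetylated LDL and for C1q on dying cells, and lies on the plus strand of chromosome 11 from 75513540 to 75526582. It had 439 and 596 reads (49.5 and 53.8 CPM) in the skin libraries, in the order control and cKO. It had 2693 and 1723 reads (152 and 124 CPM) in cultured Cont BECs and OE-BECs, and 4102 and 5144 reads (157 and 166 CPM) in Cont LECs and OE-LECs. All 4 cultured libraries were above both skin libraries, the reverse of the order for Colec12 and Fcgr2b. None of the ratios approached 3-fold. The log2 ratio was 0.06 in the skin pair (interval -0.12 to 0.24), -0.26 in OE-BECs (interval -0.35 to -0.17) and 0.10 in OE-LECs (interval 0.04 to 0.15). Relative to endothelial markers the log2 ratios were 0.80, 0.365 and 0.20, while relative to macrophage markers that of the skin pair was -0.49. In the skin libraries Scarf1 had 7.58 and 13.2 reads per 1000 endothelial marker reads, and 11.4 and 8.07 per 1000 macrophage marker reads.

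Olr1 encodes LOX-1, the lectin-like receptor for oxidized LDL that endothelium displays when inflamed. It lies on the minus strand of chromosome 6 from 129485244 to 129507165. It had 2 and 0 reads in the skin libraries, 10 and 7 in cultured Cont BECs and OE-BECs, and 15 and 17 in Cont LECs and OE-LECs. No library exceeded 0.574 CPM, and no neighbours in the order of levels differed beyond counting error. The log2 ratio was -0.13 in OE-BECs (interval -1.76 to 1.41) and -0.05 in OE-LECs (interval -1.14 to 1.05), so even a 2-fold change in either direction was not detectable at this depth.

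On the RPKM scale (reads per kilobase of exon, per 1000000 reads, with the exons of GENCODE M21 merged per gene), the order of the receptors differed between libraries. Stab1 led in both skin libraries, at 124 RPKM in Cont BECs and 211 RPKM in the cKO-labelled library, followed by Colec12 at 31.2 and 48.7 RPKM. In cultured Cont BECs, Stab1 was at 110.4 RPKM, Scarf1 at 52.7, Stab2 at 15.6 and Scarb1 at 4.86. In OE-BECs Stab1 (45.7 RPKM) and Scarf1 (42.8 RPKM) were close to each other and Stab2 was at 0.934 RPKM. In the LEC libraries Scarf1 led, at 54.4 RPKM in the control and 57.4 RPKM after overexpression, with Stab1 at 46.2 and 21.1 RPKM. Stab2 had the lowest level of the 6 members other than Olr1 in skin Cont BECs (1.71 RPKM).

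The genes whose levels followed Stab2 most closely over the 6 libraries, by Pearson r of log2(CPM + 1) among 13642 genes with a mean of at least 1 CPM, were Ttll1 (r = 0.98), Gripap1 (0.97), Adck2 (0.97), 4930556M19Rik (0.97) and Tnik (0.97). The 6 points are 3 pairs of libraries that share a tissue or line, and r takes no account of size. Ttll1, for example, ran only from 12.6 CPM in OE-LECs to 18.1 CPM in cultured Cont BECs. By the distance between the 3 log2 ratios, among 8681 genes that reached 100 normalized counts in each pair, the nearest to Stab2 was Ttyh1 (distance 1.39), with log2 ratios of 1.06 in the cKO-labelled library, -3.65 in OE-BECs and -2.42 in OE-LECs. It was followed by Ednrb, an endothelin receptor gene (0.76, -3.09 and -1.99), Tgfbi (1.10, -2.80 and -1.52), Trp53i11 (0.49, -3.05 and -2.05) and Abca1 (0.49, -4.17 and -1.30). None of these 5 genes was past 3-fold in the skin pair, where Stab2 was.

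Other genes of uptake were read from lists. Of 20 other scavenger receptor genes, 18 were over the floor in the skin pair. Of these, 2 rose in the cKO-labelled library and 0 fell, where 4.4% and 2.05% of all genes with reads were called higher and lower. Marco, a macrophage receptor for bacteria, rose from 5 to 360 reads (log2 ratio 5.79, interval 4.56 to 7.42). Cxcl16, a membrane chemokine that binds oxidized lipoproteins, rose from 27 to 137 reads (log2 ratio 1.97). Msr1 (792 and 1492 reads), Mrc1 and Cd163 (2235 and 2808 reads) were not called. Cd36, the fatty acid and thrombospondin receptor related to Scarb1, had 9758 and 6706 reads, a log2 ratio of -0.92 close to that of Scarb1. In the BEC pair 12 of the list were over the floor, and 0 were called higher and 3 lower in OE-BECs. The shares of all genes with reads were 7.05% and 4.63%. Ager fell from 102 to 24 reads (log2 ratio -1.70). Cd36 (8 and 2 reads) and Megf10 (6 and 0 reads) were called lower as well, but the intervals of their ratios include no change. In the LEC pair 12 of the list were over the floor, and 3 were called higher and 1 lower in OE-LECs. The shares of all genes with reads were 2.38% and 1.79%. Asgr1 rose there from 6 to 46 reads (log2 ratio 2.71) and Clec7a fell from 8 to 1. Cd36 (1 and 5 reads) and Lrp2 (1 and 8 reads) were called higher with intervals that include no change. The list medians were 0.13, 0.09 and 0.21 in the 3 comparisons.

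Among 15 genes of sinusoidal endothelium, F8 and Gpr182 fell in both overexpressing lines, as Stab2 did. Of the 10 over the floor in the BEC pair, 2 were called higher and 2 lower. Of the 9 in the LEC pair, 0 were called higher and 3 lower. Of all genes with reads, 7.05% and 2.38% were called higher in OE-BECs and OE-LECs, and 4.63% and 1.79% lower. Lyve1 (log2 ratios 0.85 in OE-BECs and -0.01 in OE-LECs) and Flt4 (-0.52 and 0.31) were not called. F8, the gene of coagulation factor VIII, which sinusoidal endothelium secretes, had 1355 reads in cultured Cont BECs and 232 in OE-BECs (log2 ratio -2.16, 95% limits -2.37 and -1.96). The LEC libraries had 1146 and 246 F8 reads (log2 ratio -2.45, interval -2.65 to -2.25). Gpr182, a chemokine-scavenging receptor, fell from 71 to 10 and from 175 to 52 reads. Gata4, the transcription factor of sinusoidal identity, rose from 33 to 76 reads in OE-BECs, a 3.003-fold difference at the limit of the rule. Dnase1l3 also rose in OE-BECs (4 to 11 reads) and Clec1b fell in OE-LECs (13 to 4 reads). In the skin pair only Cd209b was called, with 7 and 0 reads, and F8 (314 and 437 reads) and Gpr182 (93 and 109 reads) were not. The medians of the list were -0.05 in the skin pair, 0.08 in OE-BECs and -0.69 in OE-LECs.

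Among 15 genes of lipoprotein uptake, Abca1, which loads cholesterol onto HDL precursors, fell 18.0-fold in OE-BECs (4912 to 209 reads, log2 ratio -4.17, interval -4.38 to -3.97). It had 1903 and 906 reads in the LECs (log2 ratio -1.30), which is under the rule. Gpihbp1, the capillary anchor of lipoprotein lipase, fell in OE-BECs (783 to 136 reads, log2 ratio -2.14) and in OE-LECs (585 to 123 reads, log2 ratio -2.48). Pdzk1, which encodes the adaptor of SR-BI, was not called in any comparison. In the skin pair Lipg was the only gene of this list to be called, with 13 and 3 reads. Cd36, which belongs to this list too, accounts for its other calls. The medians were 0.06, 0.15 and 0.04.

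The 21 genes of clathrin-mediated endocytosis and stabilin sorting gave 0 calls in each comparison. They include Gulp1 and Snx17, whose proteins bind the tails of stabilins. Gulp1 held both extremes of the list, a log2 ratio of -0.66 in the cKO-labelled library and 0.97 in OE-BECs. The list medians were 0.13, 0.00 and 0.05 in the 3 comparisons, near those of all genes. Of 12 genes of hyaluronan turnover and stabilin ligands, Tgfbi, whose product is bound by stabilins, fell in OE-BECs (1900 to 209 reads, log2 ratio -2.80), and Cemip, a hyaluronan-degrading enzyme, rose in OE-LECs (12 to 47 reads, log2 ratio 1.74). Sparc, the stabilin-1 ligand, was abundant in all libraries and was not called (log2 ratios -0.51, -0.71 and -0.36). The medians of this list were -0.01, -0.34 and 0.30. The hyaluronan receptor gene Cd44 had log2 ratios of 0.33, 1.45 and 0.84.

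**Figure D5:**
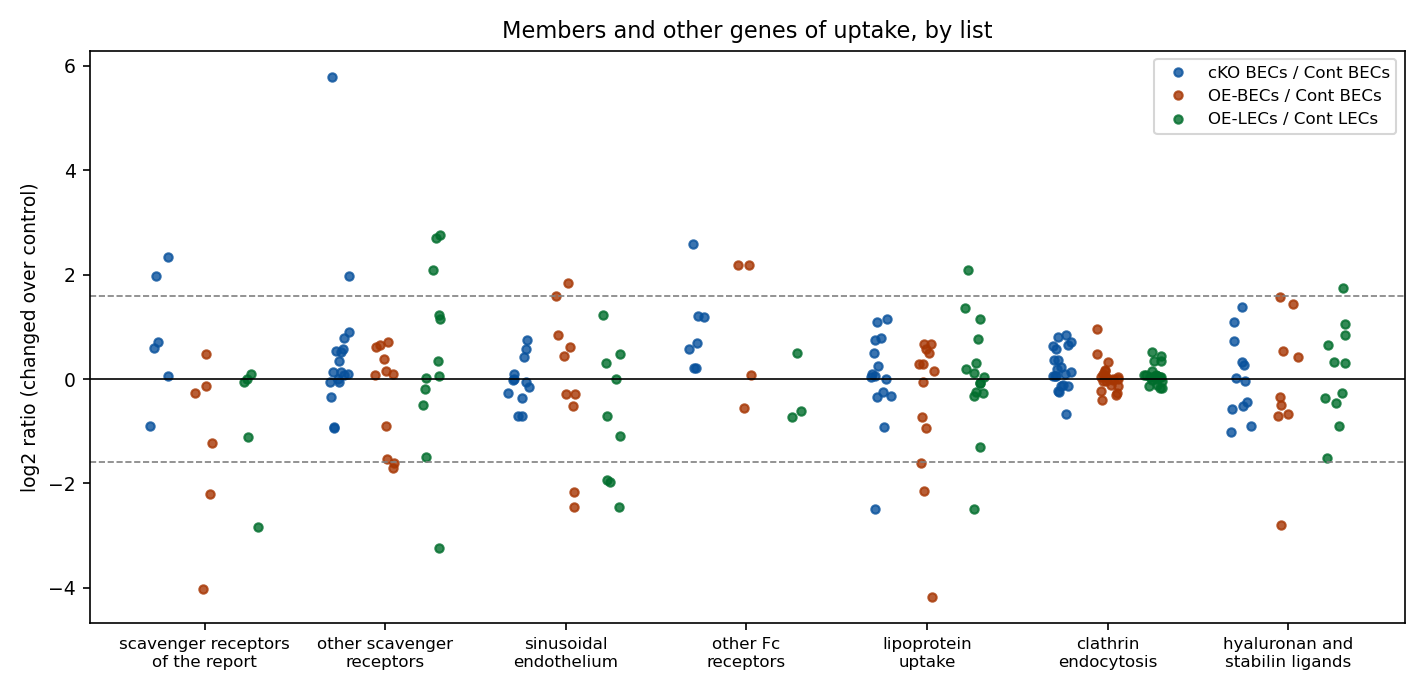
Log2 ratios (y axis) of the genes of each list (x axis) in the 3 comparisons, 1 point per gene with more than 3 reads in a library of the pair and at least 1 read in each; dashed lines mark 3-fold. The clathrin list stays within -0.66 and 0.97. The members and the other scavenger, sinusoidal and lipoprotein lists hold falls past 3-fold in both overexpressing lines. Rises past 3-fold lie in the other scavenger, lipoprotein and hyaluronan lists in OE-LECs and in the sinusoidal and Fc receptor lists in OE-BECs.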

How the data were processed

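RNA-seq was made from 6 libraries, 1 per condition, with ScriptSeq v2. According to the methods of the study and the submitters' processing notes, adapters were trimmed with skewer v0.2.2, reads were aligned to mm10 with STAR v2.7.9a and counted per gene with VERSE v0.1.5 (option -S). The values the authors deposited are raw counts for 24421 gene symbols.

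Counts were scaled per pair of libraries by the median of ratios of DESeq2 1.42.0 in R 4.3.3. A gene was called by the rule of the study's methods, more than 3-fold between the normalized counts of a pair, the higher being at least 5 in the cKO pair and 3 in the OE pairs. With 1 library per group no model has residual degrees of freedom, so no test was run. Ratios have exact Clopper-Pearson and CPM exact Poisson 95% intervals (Python 3.11.15, scipy 1.17.1). These cover counting error only, and not the spread between libraries of a condition. They treat reads as independent. PCR copies were not removed by molecular identifiers, so the intervals can be too narrow even for counting error. A library with 3 reads or fewer was at the floor. Lengths and positions came from GENCODE M21. Genes outside the members are those of the lists that were called, up to 6 per list and comparison with at least 20 reads, the 5 genes most like Stab2 by each measure, and markers; genes called on fewer reads and uncalled examples were added after their values were seen. The list gene Cemip2 was not matched in the table. The members and lists were chosen with earlier results of these data known. Alternatives tried were common size factors of the 6 libraries, TMM factors of edgeR 4.0.16, total counts with and without Rn45s, a pseudocount of 1, a 2-fold rule, a minimum of 20 normalized counts and a mean of at least 10 reads. Scales of endothelial markers and of macrophage markers, with and without Mrc1, were added after the data were seen. The steps were tested on simulated data.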

Additional observations from a re-analysis of the deposited data

Results flagged for a closer look

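Scarf1 had ratios of opposite sign in the 2 overexpressing lines, each with a counting interval that excludes 0. The log2 ratio was -0.26 in OE-BECs and 0.10 in OE-LECs, and on the endothelial marker scale both were positive (0.365 and 0.20). With 1 library per condition the difference between the lines was not tested.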

How the results depend on the processing

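No paired analysis was possible because each group has 1 library and the labels give no replicate numbers, and for the same reason no library could be left out. Stab2 kept its sign and its call in all 3 comparisons under every alternative setting, though not relative to each single macrophage marker, with log2 ratios from 1.78 to 3.08 in the skin pair, -4.06 to -3.39 in OE-BECs and -2.85 to -2.73 in OE-LECs. The ends of the first range are its values on the macrophage and endothelial marker scales, and -3.39 is its value in OE-BECs on the endothelial scale. These scales moved every log2 ratio by -0.56 (macrophage, skin, or -0.54 without Mrc1) or by 0.73, 0.63 and 0.10 (endothelial, in the order skin, OE-BECs and OE-LECs), and no other scaling moved one by more than 0.055. On the macrophage scale, with Mrc1 or without it (Stab2 at 1.80), 1 member was called higher in the skin pair, since Fcgr2b dropped out. In OE-BECs 1 member was called lower, since Colec12 dropped out, on the endothelial scale, with a pseudocount of 1, with a minimum of 20 normalized counts and with a mean of at least 10 reads. In OE-LECs a pseudocount of 1 called 1 member higher (Colec12, on 3 reads). A 2-fold rule added Stab1 in both lines, with 3 members called lower in OE-BECs and 2 in OE-LECs (Stab1 and Stab2). Scarf1 changed sign on a marker scale in the skin pair and in OE-BECs, Olr1 in both lines and Scarb1 in OE-LECs, none of them called.

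Over all genes, the numbers called higher and lower were 827 and 386 for the skin pair, 1186 and 779 for OE-BECs and 385 and 290 for OE-LECs. With a 2-fold rule the skin pair gave 1657 and 837, OE-BECs gave 1303 lower, and OE-LECs gave 692 and 591. A minimum of 20 normalized counts left 372 and 153, 222 and 261, and 109 and 51, and a mean of at least 10 reads left 450 and 163, 237 and 306, and 129 and 62. Size factors from all 6 libraries gave 246 and 168 in OE-LECs. Of the 5 genes most like Stab2 by Pearson r, 3 were kept with a mean of at least 10 CPM, and 1 was among the 9 genes tied for the highest Spearman rho. Depth limits Olr1, and Colec12 in culture.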
